A study of Mus musculus with 4 samples.

Results

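The surface markers described here are 5 genes, Cd40, Cdcp1, Plet1, Cd9 and Pecam1. They were taken by name from the 37620 gene identifiers of the count tables. No value entered that step, but the genes were chosen with earlier results of these data known. Plet1 is called 1600029D21Rik in the annotation of the files' genome build. RNA‐seq of 4 cultures was used, with 1 library per condition and no replicates. Of these, 3 came from the mouse embryonic stem cell (mESC) line R1, grown for 2 days in serum‐containing medium without feeders. All 3 received CHIR99021 at 3 µM, which inhibits GSK3, and PD0325901 at 1 µM, which inhibits MEK. The first, 2i−L, received nothing else and no LIF. The second, 2iJ, also received a JAK inhibitor at 2 µM. The third, 2iJ+B−A, received in addition BMP4 at 10 ng/ml and ALK5 inhibitor II at 10 µM. The fourth was a library of trophoblast stem cells (TSCs) of the F4 line, which carries the same day 2 label. Each cell type is a single line, and cell type and culture medium cannot be told apart in any comparison with TSCs.

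Between 33913984 and 36964392 read pairs per library fell on genes. Levels are given as CPM, which are counts divided by the library size after TMM scaling and set to a common total of read pairs, and 3 counts were taken as the smallest detectable signal, 0.0799 to 0.0902 CPM. Intervals are 95% intervals of counting error only and hold no variation between cultures, which 1 library per condition cannot measure. For that reason no p-value is given. A gene was called past the fold when the log2 ratio of CPM + 0.5 between 2 libraries was at least 1 in size, and the 14263 genes that reached 1 CPM in any library were compared. The labelled cell types were checked with marker genes. Pou5f1, the gene of Oct4, was at 658 to 899 CPM in the mESC libraries and at 1.34 CPM in TSCs. The summed level of 10 pluripotency genes was 2797 to 4387 CPM in the mESC libraries and 569 CPM in TSCs. Of the 10, 9 were past the fold downward in TSCs against 2iJ and 1 upward, Gbx2 at 1.32, beside 17.6% and 19.4% of all genes. In 2iJ+B−A against 2iJ, 2 were past it upward, Klf4 (1.17) and Tbx3 (1.12), and 0 downward, beside 5.81% and 3.17% of all genes. The summed level of 12 trophoblast genes was 963 CPM in 2i−L and 910 CPM in 2iJ, with 1699 CPM in 2iJ+B−A, while in TSCs it was 4076 CPM. Most of the difference between 2iJ and 2iJ+B−A in this sum came from the keratin genes Krt8 (134 and 553 CPM) and Krt18 (105 and 521 CPM). Of the 12 genes, 7 were past the fold upward in 2iJ+B−A against 2iJ and 1 downward, beside 5.81% and 3.17% of all genes. The 7 included Hand1 (1.31 and 104 CPM), Cdx2 (6.70 and 33.6 CPM) and Gata3 (7.43 and 19.1 CPM). Eomes (10.7 and 2.74 CPM), Tfap2c (142 and 113 CPM) and Esrrb (476 and 302 CPM) were lower in 2iJ+B−A. Elf5, a transcription factor of trophoblast stem cells, was at 0.0301 to 0.133 CPM in the mESC libraries and at 298 CPM in TSCs.

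Cell surface proteins are widely used to separate the first lineages of the mouse embryo, because living cells can be stained for them and sorted. PLET1 is a surface protein known from the placenta and from trophoblast precursors. CD40 and CDCP1 have been used as surface markers of trophectoderm and of cultured trophoblast stem cells. CD40 is otherwise best known as a receptor of B cells and antigen‐presenting cells, and CDCP1 as a glycoprotein with CUB domains that Src‐family kinases phosphorylate. CD9 is a tetraspanin, a small protein that crosses the membrane several times and organizes other surface proteins, and it is needed on the egg for fusion with sperm. PECAM1, or CD31, is an adhesion molecule of the immunoglobulin superfamily that marks endothelium and also the inner cell mass and naïve embryonic stem cells. The 5 genes are thus not all trophoblast markers by their known roles. In these libraries Cd40, Cdcp1 and Plet1 were higher in TSCs than in mESCs, whereas Pecam1 was lower and Cd9 much alike, which goes against the name for the last pair.

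In NCBIM37, the build of the files, Cd40 (ENSMUSG00000017652) lies on chromosome 2 from 164881127 to 164898448 on the plus strand. Plet1 (ENSMUSG00000032068) lies on chromosome 9 from 50302630 to 50313744, also on the plus strand. Cdcp1 (ENSMUSG00000035498) is on the same chromosome from 123079942 to 123125156 on the minus strand, so that the pair is far apart. Cd9 (ENSMUSG00000030342) is on chromosome 6 from 125410284 to 125444809 and Pecam1 (ENSMUSG00000020717) on chromosome 11 from 106515531 to 106611942, both on the minus strand. Cd40, Cdcp1 and Plet1 overlap no other annotated gene. Cd9 shares 30 exonic bases with Gm16749, a noncoding RNA gene of the opposite strand, and Pecam1 holds a small nucleolar RNA gene in an intron.

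Promoter sequences were found for 3 of the 5 genes, Plet1, Cdcp1 and Cd9, in the RefSeq table of build GRCm38.p6. Plet1 and Cdcp1 had like patterns over the 4 libraries, described further on, and Cd9 the flattest pattern of the 5. The 3 sequences are shown because they were found, not for these patterns. Each runs 5′ to 3′ toward the start of the gene, and for Cdcp1 the 72 bases next to the listed start lie inside the RefSeq gene and are not shown. Capitals mark matches to 9 motifs that were searched on both strands of the 250 bases before each listed start. The motifs were those of TFAP2 factors (GCCNNNGGC), of TEAD factors (GGAATG), of T-box factors (GGTGTGA), of CDX factors (TTTATGG), of GATA-family zinc finger factors (AGATAA), of SMAD proteins at GC-rich sites (GGCGCC), of Krüppel-like factors (GGGTGTG), of octamer factors (ATGCAAA) and of E-box factors (CACGTG).
Plet1, chr9:50494275-50494524, plus strand: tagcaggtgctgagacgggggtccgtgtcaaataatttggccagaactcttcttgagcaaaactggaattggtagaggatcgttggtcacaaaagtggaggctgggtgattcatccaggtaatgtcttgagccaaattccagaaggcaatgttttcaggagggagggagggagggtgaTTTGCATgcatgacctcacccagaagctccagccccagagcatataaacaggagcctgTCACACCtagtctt
Cdcp1, chr9:123216111-123216288, minus strand: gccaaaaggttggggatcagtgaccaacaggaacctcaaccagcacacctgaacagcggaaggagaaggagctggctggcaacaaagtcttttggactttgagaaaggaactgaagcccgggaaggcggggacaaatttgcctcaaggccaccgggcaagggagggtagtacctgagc
Cd9, chr6:125494761-125495010, minus strand: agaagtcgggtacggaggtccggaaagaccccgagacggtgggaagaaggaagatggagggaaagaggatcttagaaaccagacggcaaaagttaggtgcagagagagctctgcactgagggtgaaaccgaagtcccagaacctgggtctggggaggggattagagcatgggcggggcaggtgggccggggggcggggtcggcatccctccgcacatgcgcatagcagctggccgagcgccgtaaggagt

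The Plet1 window held 2 matches, both on the opposite strand. The octamer match lay 72 to 66 bases before the start, and 4.12% of 32851 promoter windows of the same length hold that motif. The T-box match lay 14 to 8 bases before the start, and 3.33% of the windows hold it. The Plet1 sequence also held TATAAA, the letters of a TATA box, 30 bases before its start. These letters stand in the last 40 bases of 2.31% of the windows, and they were looked for after the sequence had been seen. Neither the Cdcp1 nor the Cd9 window held any of the 9 motifs. The windows differed in CpG content. The ratio of observed to expected CpG was 0.199 for Plet1, 0.432 for Cdcp1 and 0.761 for Cd9, beside a median of 0.373 over all windows. These matches describe letters in 1 window per gene and say nothing of binding.

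Levels of Cd40, Cdcp1 and Plet1 were low in all 3 mESC libraries and far higher in TSCs, whereas Pecam1 was highest in mESCs and Cd9 was abundant everywhere. Plet1 was at 3.94 CPM in 2i−L and 4.60 CPM in 2iJ, at 9.13 CPM in 2iJ+B−A, and at 124 CPM in TSCs. Cdcp1 was at 2.41 CPM in 2i−L and 3.23 CPM in 2iJ, at 6.71 CPM in 2iJ+B−A, and at 66.4 CPM in TSCs. For both genes the order of the 4 libraries was the same, with 2i−L lowest and TSCs highest, and the intervals of 2i−L and 2iJ overlapped. Cd40 was at 0.541 CPM in 2i−L and 0.728 CPM in 2iJ, at 0.586 CPM in 2iJ+B−A, and at 23.0 CPM in TSCs. Its mESC values rest on 18, 25 and 22 read pairs, and their intervals, which together span 0.321 to 1.07 CPM, all overlapped. Pecam1 was at 129 CPM in 2i−L and 133 CPM in 2iJ, at 101 CPM in 2iJ+B−A, and at 42.4 CPM in TSCs. Its intervals overlapped between 2i−L and 2iJ only. Cd9 was at 229 CPM in 2i−L and 204 CPM in 2iJ, at 268 CPM in 2iJ+B−A, and at 227 CPM in TSCs. The intervals of 2i−L, 224 to 234 CPM, and TSCs, 222 to 232 CPM, overlapped, with 2iJ below both and 2iJ+B−A above both.

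**Figure D1:**
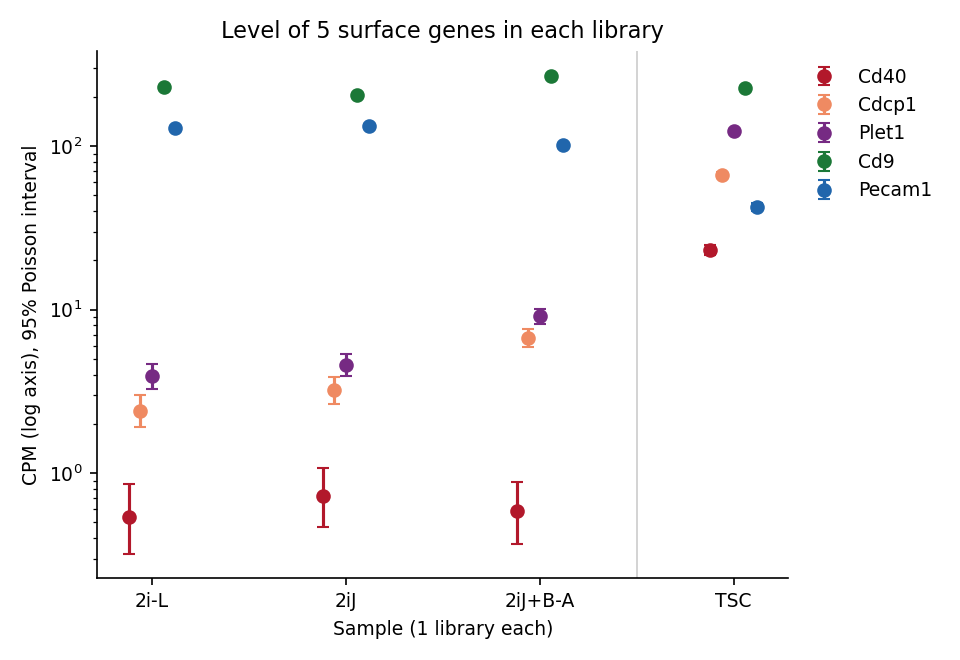
Level of each of the 5 genes (CPM, log axis) in each of the 4 libraries, with bars for the 95% Poisson interval of the count. Cd40, Cdcp1 and Plet1 lie at 9.13 CPM or lower in the 3 mESC libraries and at 23.0 to 124 CPM in TSCs, Pecam1 is lowest in TSCs at 42.4 CPM, and Cd9 stays between 204 and 268 CPM.

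Levels of different genes were compared per kilobase of merged exons. On this scale, Cd9 ranked first of the 5 in every library, from 99.6 CPM per kb in 2iJ to 131 in 2iJ+B−A, above at least 96.1% of the genes compared. Pecam1 came second in the mESC libraries, at 29.8 CPM per kb in 2i−L, 30.8 in 2iJ and 23.3 in 2iJ+B−A. In TSCs the second place was taken by Plet1, at 62.6 CPM per kb, a level above 93.9% of genes. Pecam1 was at 9.83 CPM per kb in TSCs, next to Cdcp1 at 9.82, values that counting error does not separate. Cd40 was the lowest of the 5 in all 4 libraries. Its level in TSCs, 6.77 CPM per kb, was close to the median of all genes compared, 6.55, while in the mESC libraries it was above 4.62% to 6.84% of genes only. Of the summed level of the 5 genes per kb, Plet1 made up 1.38% in 2i−L and 1.74% in 2iJ, with 2.87% in 2iJ+B−A, while in TSCs it made up 31.3%. The share of Pecam1 was 20.7%, 23.1%, 14.6% and 4.92% in the same order.

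JAK acts below the LIF receptor, and 2iJ against 2i−L shows what the JAK inhibitor was accompanied by. None of the 5 was past the fold between 2iJ and 2i−L, where 2.15% of the 14263 genes were. Cdcp1 had the largest log2 ratio, 0.36 (interval 0.00 to 0.72), and Cd40 one of 0.24 (−0.28 to 0.74). Plet1 had a log2 ratio of 0.20 (−0.11 to 0.51) and Pecam1 one of 0.05 (−0.01 to 0.11). The interval of each of these 4 genes reached 0, so a difference was not detectable at this depth. Cd9 was lower in 2iJ, with a log2 ratio of −0.17 (−0.21 to −0.12), and 77.6% of genes had a higher ratio.

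Adding BMP4 and the ALK5 inhibitor to 2iJ, the condition in which the study looked for a trophectoderm-like state, was accompanied by about doubled Cdcp1 and Plet1 and by no detectable difference in Cd40. Cdcp1 was 2.08-fold higher in 2iJ+B−A than in 2iJ (interval 1.65 to 2.62), from 111 to 252 read pairs. Plet1 was 1.98-fold higher (1.64 to 2.41), from 158 to 343 read pairs. On the log2 scale with 0.5 CPM added, these were 0.95 and 0.92, just under the limit of 1. Hence 0 of the 5 genes were past the fold in this comparison, in which 8.97% of all genes were, 5.81% higher and 3.17% lower. Only 6.36% of the genes compared had a higher log2 ratio than Cdcp1, and 6.79% a higher one than Plet1. Cd40 was at 0.804 times its 2iJ level (interval 0.432 to 1.49), an interval that holds decreases and increases alike.

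The remaining genes of the 5 moved less and in opposite directions. Cd9 was 1.31-fold higher in 2iJ+B−A (interval 1.27 to 1.36) and Pecam1 1.32-fold lower (1.27 to 1.38), in both cases outside counting error. For Cd9, 18.5% of all genes had a higher log2 ratio, and for Pecam1 14.8% had a lower one. The median log2 ratio of the 5 was 0.39, and that of all genes 0.00. With 2i−L in place of 2iJ, Cdcp1 had a log2 ratio of 1.31 (0.99 to 1.63) and Plet1 one of 1.12 (0.85 to 1.39) in 2iJ+B−A. Both were then past the fold, as were 12.5% of all genes, 7.93% upward and 4.52% downward. The same 2iJ+B−A library enters both comparisons.

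**Figure D2:**
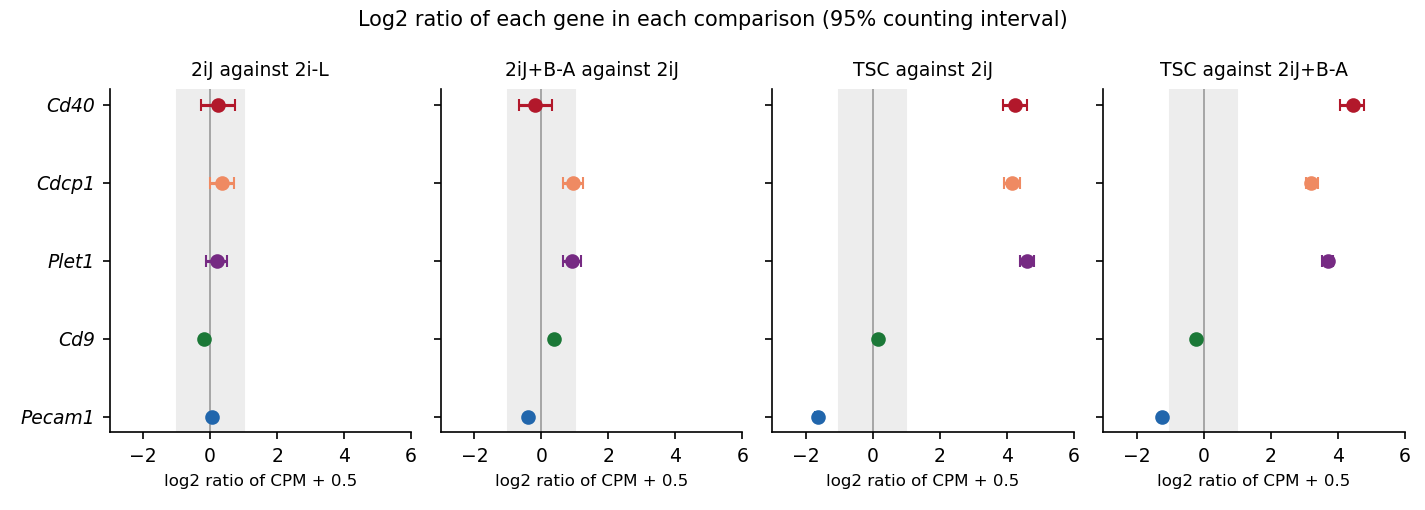
Log2 ratio of CPM + 0.5 of each gene in the 4 comparisons, with bars for the 95% counting interval and a gray band for values within the fold. All 5 genes lie inside the band in the comparisons among mESC libraries, and Cd40, Cdcp1 and Plet1 lie at 3.21 to 4.61 in the comparisons with TSCs.

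Against 2iJ, TSCs had Cd40, Cdcp1 and Plet1 at 20.5 to 31.7 times the level, Pecam1 at less than the 2iJ level and Cd9 near it. Cd40 was 31.7-fold higher (interval 21.3 to 49.2), with 809 read pairs in TSCs and 25 in 2iJ. Plet1 was 27.0-fold higher (23.0 to 31.9) and Cdcp1 20.5-fold higher (17.0 to 25.1), and the intervals of the 3 folds overlapped in part. Pecam1 was 3.14-fold lower (2.96 to 3.33). Cd9 had a log2 ratio of 0.15 (0.11 to 0.20), and 43.7% of all genes had a higher one. Thus 3 of the 5 genes were past the fold upward and 1 downward, in a comparison in which 37.0% of genes were, 19.4% upward and 17.6% downward. Cd40 reached the minimum of 1 CPM in TSCs only, as did 644 of the genes compared, so its place among them depended on its TSC level. On the log2 scale, Plet1 stood at 4.61, with 86 of the 14263 genes above it. Cd40 stood at 4.26 with 116 genes above it, and Cdcp1 at 4.16 with 127. Pecam1 stood at −1.64, and 9.91% of genes were lower still. Against 2i−L the same 4 genes were past the fold in TSCs, Plet1 at 4.81, Cdcp1 at 4.53, Cd40 at 4.50 and Pecam1 at −1.59, in a comparison with 36.8% of genes past it, 19.4% upward and 17.4% downward.

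TSCs and the 2iJ+B−A library were then compared directly, which asks how far the treated mESCs remained from trophoblast stem cells. It shares the 2iJ+B−A library with the comparison of 2iJ+B−A with 2iJ and the TSC library with that of TSCs with 2iJ. Cd40 was 39.4-fold higher in TSCs (interval 25.8 to 63.1), Plet1 13.6-fold (12.2 to 15.2) and Cdcp1 9.90-fold (8.69 to 11.3). Pecam1 was 2.37-fold lower in TSCs (2.23 to 2.52), and Cd9 1.18-fold lower (1.15 to 1.22). Here too 3 of the 5 were past the fold upward and 1 downward, with 32.6% of all genes past it, 16.4% upward and 16.2% downward. Fewer cells with a transcript and less transcript per cell cannot be told apart in such bulk libraries.

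**Figure D3:**
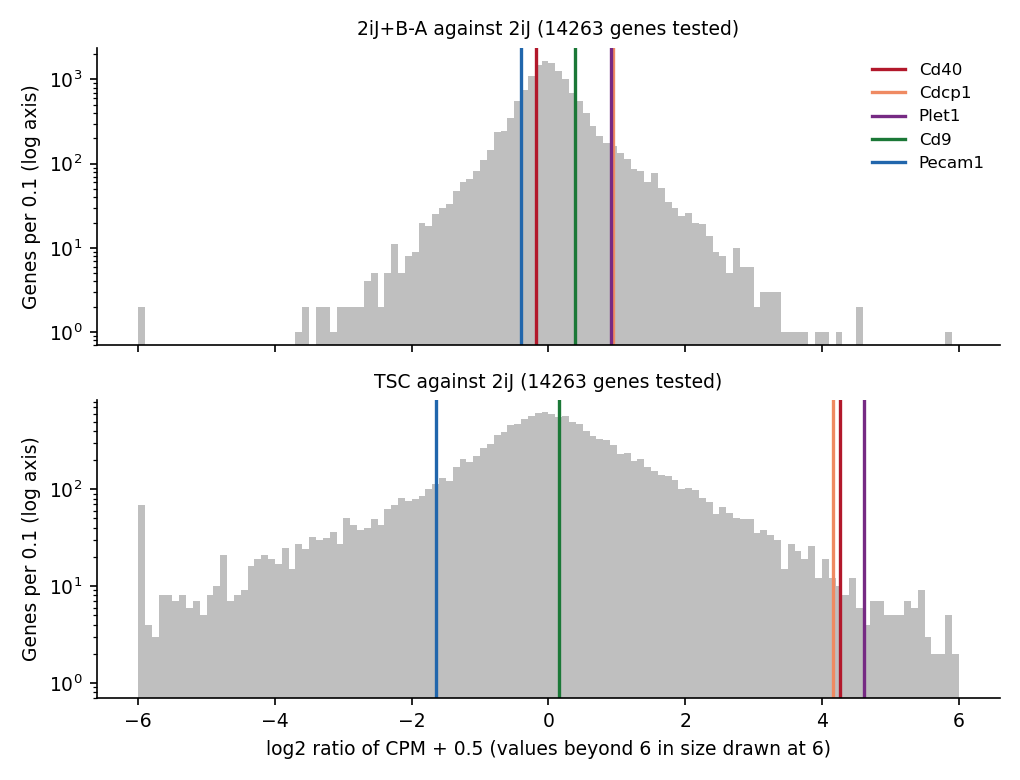
Number of genes (log axis) by log2 ratio of CPM + 0.5, for 2iJ+B−A against 2iJ (top) and TSC against 2iJ (bottom), with colored lines for the 5 genes. At the top the 5 lines fall between −0.40 and 0.95, and at the bottom Cd40, Cdcp1 and Plet1 fall at 4.16 to 4.61, with Pecam1 at −1.64.

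The counts of 4 of the 5 genes were little affected by strand or by sequence copies. Cd40, Cdcp1, Plet1 and Pecam1 transcripts matched no other place in NCBIM37, and their counts without regard to strand were 100% to 106% of those on the gene's strand. Cd9 differed on both points. Without regard to strand, 69.8% to 72.1% of its count was left, for a reason that was not tested. A stretch of 94.2% of its transcript also matched an annotated pseudogene, Cd9-ps, on chromosome 7 from 48937630 to 48938758, with 91.5% identical bases. At most 1 read pair was counted on an annotated gene at that place in any library, and reads that fit both places are counted for neither.

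Genes whose patterns over the 4 libraries came closest were found by the root mean square difference of log2(CPM + 0.5), each pattern centered on its own mean. Nearest to Plet1 was Ltbr, the lymphotoxin beta receptor of the TNF receptor superfamily, at a difference of 0.0480. Ltbr was at 1.26 CPM in 2i−L and 1.54 CPM in 2iJ, at 3.38 CPM in 2iJ+B−A, and at 45.8 CPM in TSCs. Scara5, a ferritin receptor, followed at 0.101 and Snai3, a zinc finger gene, at 0.124. Snai3 was also the nearest gene to Cdcp1, followed by Nfatc1 (0.104) and Itih5 (0.113). Plet1 and Cdcp1 stood 0.190 apart, and only 9 genes came closer to Plet1 than Cdcp1 did. Cd40 stood 0.440 from Plet1 and 0.522 from Cdcp1, and its nearest genes were Acpp (0.0949), Gm8615 (0.104) and Barx1 (0.106). Acpp was at 2.01 to 2.45 CPM in the mESC libraries. Gm8615 and Barx1 were at 0.0301 to 0.0799 CPM there, at or below the smallest detectable signal. Their closeness to Cd40 therefore depends on the 0.5 CPM added. Nearest to Pecam1 were Kat2b, a histone acetyltransferase (0.0243), and Akr1b3, an aldose reductase (0.0382), followed by ENSMUSG00000093516 at 0.0386. Cd9 had so flat a pattern that 3774 genes came within 0.25 of it, led by Cenpk (0.00806), Polq (0.0187) and Lace1 (0.0193), beside 18 to 27 genes within that distance of Cd40, Cdcp1 or Plet1. These differences describe 4 libraries and carry no statement on shared control.

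Of 12 other surface genes known from trophoblast, all compared, 5 were past the fold upward in 2iJ+B−A against 2iJ and 0 downward, with a median log2 ratio of 0.52. Of all genes, 5.81% were past it upward and 3.17% downward. Gjb5, a trophoblast connexin, had a log2 ratio of 2.18 (2.65 to 13.7 CPM). Met, Egfr and Cldn4 were also past the fold, with Met at 1.73. Fgfr2, the receptor through which FGF4 maintains trophoblast stem cells, had the lowest value, −0.92. In TSCs against 2iJ, 9 of the 12 were past the fold upward and 1 downward, with a median of 2.30, beside 19.4% and 17.6% of all genes. Itga7, an integrin subunit, led with 5.97, and Lifr, the LIF receptor, was lowest at −4.31. Epcam, a pan-epithelial marker, had a log2 ratio against 2iJ of 0.41 for 2iJ+B−A and of 2.21 for TSCs.

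Surface genes known from pluripotent cells, to which Pecam1 belongs by its usage, were split in TSCs. Of 11 compared, 4 were past the fold downward in TSCs against 2iJ and 4 upward, beside 17.6% and 19.4% of all genes, with a median log2 ratio of −0.01. Tdgf1, the Nodal co-receptor Cripto, was lowest at −7.94, followed by Kit, the stem cell factor receptor, at −4.74. Bst2 was highest at 4.13 and Prom1 next at 2.87. Against 2iJ, the 2iJ+B−A library had 1 of the 11 past the fold downward, Tdgf1 at −1.85, and 2 upward, Fut4 at 1.39 and Bst2 at 1.18, beside 3.17% and 5.81% of all genes. Pecam1, at −1.64 in TSCs, was thus less reduced there than Tdgf1, Kit or Alpl (−3.88).

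**Figure D4:**
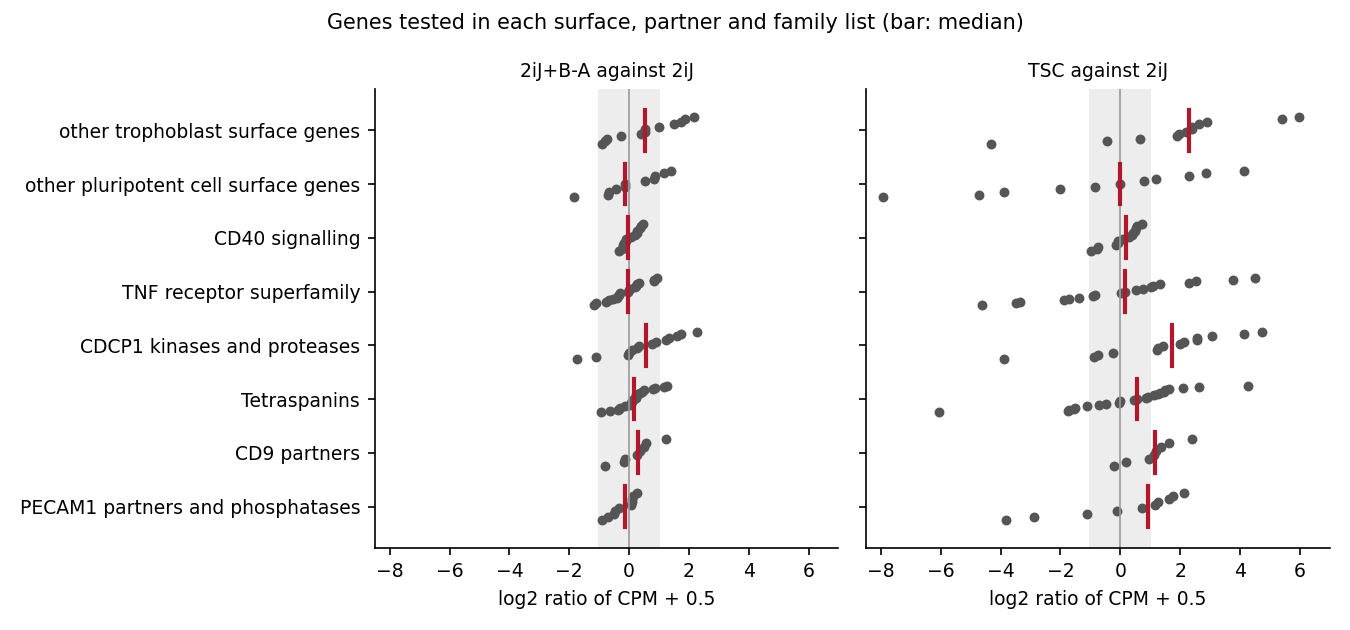
Log2 ratio of CPM + 0.5 of every compared gene (points) in 8 lists of surface, partner and family genes, with a red bar at the median of each list and a gray band for values within the fold. The CD40 signaling genes all lie inside the band in both comparisons, whereas the other trophoblast surface genes have medians of 0.52 and 2.30.

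CD40 binds CD40L and signals through TRAF adaptors to NF-κB. Of 15 listed genes, 14 were compared, and 0 were past the fold in either direction in any of the 4 comparisons, in which 2.15% to 37.0% of all genes were. Cd40lg, the gene of the ligand, was below 1 CPM in all libraries. In TSCs against 2iJ the values ran from −0.97 for Relb, an NF-κB subunit, to 0.73 for Tnfaip3, a feedback inhibitor of NF-κB, with a median of 0.20. The other members of the TNF receptor superfamily were spread widely. Of 19 compared out of 26, 7 were past the fold upward and 6 downward in TSCs against 2iJ, beside 19.4% and 17.6% of all genes. Of the 7, Tnfrsf9 and Tnfrsf11a reached 1 CPM in TSCs only, so that these 2 were compared only because of their TSC level. Ltbr (4.50) and Tnfrsf1a, the TNF receptor 1 gene (3.77), were highest, and Tnfrsf19 (−4.61) and Ngfr (−3.50) lowest. In 2iJ+B−A against 2iJ, 0 were past the fold upward and 2 downward, beside 5.81% and 3.17% of all genes, namely Tnfrsf25 at −1.18 and Tnfrsf21 at −1.10.

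Src‐family kinases phosphorylate CDCP1, and serine proteases such as matriptase (St14) and plasmin cleave it. Of 15 listed genes, 14 were compared, and in TSCs against 2iJ 10 were past the fold upward and 1 downward, beside 19.4% and 17.6% of all genes, with a median of 1.72. Prss8, the gene of the serine protease prostasin, had a log2 ratio of 4.14. Of the Src-family kinases, Lyn (3.05), Fyn (2.13) and Src (1.26) were past the fold upward. In 2iJ+B−A against 2iJ, 5 were past the fold upward and 2 downward, beside 5.81% and 3.17% of all genes, with a median of 0.55. Prss8 (2.26) and Plau, the urokinase gene (1.75), were highest.

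Tetraspanins, the family of CD9, varied widely. Of 30 others listed, 23 were compared, and 9 were past the fold upward and 6 downward in TSCs against 2iJ, beside 19.4% and 17.6% of all genes, with a median of 0.57. Cd82 was highest at 4.28 and Cd63, a lysosomal and exosomal tetraspanin, next at 2.64, whereas Tspan6 was lowest at −6.06, with 34.7 CPM in 2iJ and 0.0285 in TSCs. In 2iJ+B−A against 2iJ, Cd82 (1.28) and Tspan1 (1.17) were past the fold and the other 21 were not, a share of 8.70% that is close to the 8.97% of all genes. Among 8 compared genes of CD9 partners, 5 were past the fold upward in TSCs against 2iJ and 0 downward, beside 19.4% and 17.6% of all genes. Itga3, an integrin subunit, was highest at 2.39 there and at 1.23 in 2iJ+B−A against 2iJ. Ptgfrn, the gene of a direct partner of CD9, had a log2 ratio of 0.20 in TSCs against 2iJ, beside 0.15 for Cd9. Igsf8, the gene of another direct partner, had one of 1.19 there and of −0.82 in 2iJ+B−A against 2iJ, where Cd9 had 0.39.

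Genes around PECAM1, such as the phosphatases that bind its cytoplasmic tail, did not share one direction. Of 10 compared, 5 were past the fold upward and 3 downward in TSCs against 2iJ, beside 19.4% and 17.6% of all genes, and 0 in 2iJ+B−A against 2iJ, beside 8.97% in either direction. Inpp5d, the inositol phosphatase SHIP1, was lowest at −3.82, Ceacam1, a related adhesion gene, was at −2.89, and Ptpn6, the phosphatase SHP1, was at −1.12. Ptpn11, the gene of the partner phosphatase SHP2, had a log2 ratio of 0.71. Fyn was highest at 2.13.

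Cd40 and Pecam1 are also expressed by blood cells and endothelium, and TSCs are often grown with fibroblasts, so markers of these cells were read in the same libraries. The summed level of 10 endothelial markers was 43.1 to 60.3 CPM in the mESC libraries and 98.2 CPM in TSCs. In TSCs, Emcn and Cldn5 were at 0 and Tek, the angiopoietin receptor gene, at 1 read pair, while Kdr (22.2 CPM) and Cdh5 (10.7 CPM) were higher than in any mESC library. The summed level of 10 blood cell markers was 14.4 to 15.7 CPM in the mESC libraries and 46.0 CPM in TSCs, of which Gata1 made up 38.8 CPM. Ptprc, the gene of CD45, was at 0 in all 4 libraries, and Itgam was at 0 in TSCs. The summed level of 10 fibroblast markers was 31.1 to 48.3 CPM in the mESC libraries and 8.52 CPM in TSCs, where Col1a2, Dcn and Lum were at 0. Pdgfrb made up 4.19 CPM of the sum in TSCs, with Col1a1 at 1.68 CPM and Thy1 at 1.25 CPM. Twist2 was at 0.0582 to 0.612 CPM in the mESC libraries and at 0.741 CPM in TSCs. For 10 primitive endoderm markers the sum was 119 to 321 CPM in the mESC libraries and 1154 CPM in TSCs. Col4a1, a basement membrane collagen, made up 1099 CPM of the sum in TSCs. Gata4 was at 1.69 to 3.91 CPM in the mESC libraries and at 23.5 CPM in TSCs, and Ttr was at 0 in all libraries. Other markers of the list went the other way. Lama1 was at 39.2 to 52.4 CPM in the mESC libraries and at 2.62 CPM in TSCs. Sox17 was at 0.408 to 2.32 CPM in the mESC libraries and at 0.142 CPM in TSCs. Of 7 compared, 4 were past the fold upward in 2iJ+B−A against 2iJ and 0 downward, beside 5.81% and 3.17% of all genes. In TSCs against 2iJ, 3 were past it upward and 1 downward, Lama1 at −3.67, beside 19.4% and 17.6% of all genes. Foxa2, 1 of the 3, reached 1 CPM in TSCs only. For 10 markers of differentiated trophoblast the sum was 10.5 CPM in 2i−L and 22.2 CPM in 2iJ, with 80.4 CPM in 2iJ+B−A, while in TSCs it was 107 CPM. Flt1 made up 85.7 CPM of the sum in TSCs, and Gcm1 (28.0 CPM), Flt1 (26.6 CPM) and Ascl2 (22.7 CPM) most of that in 2iJ+B−A. Gcm1, a gene of syncytiotrophoblast, was at 0.399 CPM in TSCs. The part of these cell types in the levels of the 5 genes was not tested.

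Genes next to the 5 on their chromosomes had values of their own. Pts, the nearest compared gene above Plet1 at a distance of 15979 bases, had a log2 ratio against 2iJ of 0.54 for 2iJ+B−A and of 1.16 for TSCs. For Ncoa5, the nearest compared gene below Cd40, these were 0.04 and −0.09. Beside Cdcp1, Tmem158 had 0.16 and 0.57, and Lars2, next in order, 0.11 and −2.97. Tnfrsf1a lies 97782 bases below Cd9 and was at 3.09 CPM in 2iJ and 48.4 in TSCs, whereas Cd9 was at 204 and 227. Tex2, the nearest gene below Pecam1, had log2 ratios of −0.06 and 1.15 in the same order.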

How the data were processed

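RNA was taken from 4 cultures, 1 per condition, and poly-A RNA was sequenced as paired reads from a directional library kit. The authors trimmed the reads with TrimGalore and cutadapt, mapped them with STAR 2.4.2a to NCBIM37 and deposited the whole-number count of read pairs on each gene, without normalization. The annotation release is not given in the sources used here, and the ComBat step of the study is not in these counts. STAR leaves out pairs that map to several places, 6.722% to 7.006% of each library.

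Rows that name no gene were left out, and 82.23% to 83.58% of read pairs were on genes. The reverse-strand count was used, 29.10 to 32.11 times the opposite one. Of 37620 identifiers, 37205 were found in GENCODE vM1 (NCBIM37), which gave positions and exon lengths. TMM factors came from edgeR 4.0.16 (R 4.3.3), and other steps used Python 3.11.15, scipy 1.17.1, pandas 2.3.3 and minimap2 2.31. No model could be fitted with 1 library per condition. Values carry 95% Poisson intervals and ratios 95% Clopper–Pearson intervals. Ratios used a pseudocount of 0.5 CPM, except that folds were taken on CPM without it. The ratios and intervals were tested on simulated counts that held counting error only. Such a test cannot speak to variation between cultures. Named genes were the 5 genes, the 3 genes nearest to each in pattern, and from each list the 2 highest and 2 lowest log2 ratios of 2iJ+B−A and of TSCs against 2iJ. Some genes that this rule names are not reported here. Further list genes and the flanking genes were named after their values were seen. The 5 genes and all lists were chosen with earlier results of these data known. Alternatives were the unstranded count, DESeq2 1.42.0 size factors, total counts, other pseudocounts, filters and limits of the log2 ratio, and 2i−L as the reference.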

Additional observations from a re-analysis of the deposited data

Results flagged for a closer look

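Read pairs on the strand opposite to Plet1, which entered no comparison, numbered 36 in TSCs against 1 in 2i−L, 1 in 2iJ and 3 in 2iJ+B−A. They were picked out because the TSC count lay above the smallest detectable signal and above the mESC libraries. As a share of all read pairs on the gene they were 0.819% in TSCs and 0.629% to 0.867% in the mESC libraries.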

How the results depend on the processing

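No paired analysis was possible because each group holds 1 library. The number of the 5 genes past the fold in 2iJ+B−A against 2iJ, 0, became 1 with a pseudocount of 0.1 CPM (Cdcp1, at 1.03), 2 with a limit of 0.5 and 2 with 2i−L as the reference. In the other 3 comparisons it stayed within 1.5 times under all alternatives run. Over all genes, 306 were past the fold in 2iJ against 2i−L, and 652 with a pseudocount of 0.1 CPM, 181 with one of 1 CPM and 192 with a minimum of 5 CPM. With limits of 0.5 and 2 the counts were 1807 and 8 there, 3606 and 199 in 2iJ+B−A against 2iJ, 8749 and 2172 in TSCs against 2iJ, and 8237 and 1782 in TSCs against 2iJ+B−A. Of 110 log2 ratios of the 5 genes recomputed, 3 changed sides of the limit and 2 changed sign. With 2i−L as the reference, Cd40 in 2iJ+B−A was at 0.06 and Cd9 in TSCs at −0.01. With pseudocounts of 1 and 0.1 CPM, the log2 ratio of Cd40 in TSCs was 3.80 and 4.80 against 2iJ and 3.92 and 5.08 against 2iJ+B−A. Its 18 to 25 read pairs per mESC library limit what can be said of it there.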
